A study of Mus musculus with 4 samples.

Results

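The genes described here are 10 that carry iron through the absorptive cells of the gut: Tfrc, Slc11a2, Slc40a1, Cybrd1, Heph, Fth1, Ftl1, Hmox1, Slc46a1 and Epas1. They were taken by symbol, and all 10 were found among the 25522 genes listed without tetracycline and the 26085 listed with it. Sequenced RNA came from crypts of the small intestine, the epithelial pits in which the intestinal stem cells sit. The animals were 9-week-old C57BL/6J males. The study asked how depletion of what is abbreviated AKK, brought about with an antibiotic, alters expression when mice are fed or fasted. The 4 groups were fed or fasted for 24 hours, each without or with 21 days of tetracycline, and the labels list 1 sample in each. The deposited tables are the authors' own fasted against fed comparisons, 1 without and 1 with tetracycline. The whole counts behind their means showed 2 fasted and 2 fed libraries per table, with 33030349 to 47535861 recovered counts each. Nothing says whether the 2 libraries of a group came from separate mice or pools, so p-values measure the spread between these libraries, which may be technical. No column names the direction of change. The tables' names put fasting first, so positive values were taken as higher in fasted crypts, and every direction below rests on that.

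Dietary iron enters the enterocyte as ferrous iron or as haem. It is then stored in ferritin, used, or exported to the blood across the basolateral membrane. Cells match these steps to their iron content largely after transcription. The iron regulatory proteins bind a hairpin in the messenger RNA, called an iron-responsive element, when iron is scarce. Binding in the 3′ untranslated region protects the Tfrc message from decay, while binding near the 5′ end blocks translation of ferritin and ferroportin. Transcription adds a second layer, chiefly through hypoxia-inducible factor 2α, the product of Epas1, which drives the apical iron importers in the duodenum. RNA counts read message level and not translation.

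Hairpins of the iron-responsive type are shown because they are the sites through which iron acts on several of these messages. The pattern searched on the sense strand of GENCODE mouse transcripts was a C, 5 bases, the loop CAGTGN and 5 bases able to pair with the first 5, with G-T pairs allowed. It occurred in 4 of the 10 members, each searched in its first-numbered protein-coding transcript alone. With any protein-coding transcript counted, it occurred in 294 of 21901 protein-coding genes, or 1.34%, so these shares come from unlike searches. The capitals mark the 6-base loop, and positions are those of GRCm38, which is the mm10 build named in the submitters' processing notes. Tfrc held 4 matches in exon 19, within the 3′ untranslated region, at chr16:32631219-32631248, chr16:32631598-32631627, chr16:32631663-32631692 and chr16:32631710-32631739 on the plus strand.
Tfrc site 1: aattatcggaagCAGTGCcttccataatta
Tfrc site 2: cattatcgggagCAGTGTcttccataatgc
Tfrc site 3: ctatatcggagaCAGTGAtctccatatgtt
Tfrc site 4: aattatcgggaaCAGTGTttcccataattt
The other matches lay in exon 1, within the 5′ untranslated region. They were at chr1:45925464-45925493 (minus strand) for Slc40a1, chr19:9982732-9982761 (plus strand) for Fth1 and chr7:45459778-45459807 (minus strand) for Ftl1.
Slc40a1: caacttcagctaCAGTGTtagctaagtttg
Fth1: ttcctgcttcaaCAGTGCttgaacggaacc
Ftl1: gtcttgcttcaaCAGTGTttgaacggaaca
The remaining 6 members held no match, which says only that these letters are not in the single annotated transcript searched for each. Among them, Slc11a2 (in the 3′ untranslated region of 1 of its isoforms) and Epas1 (in the 5′ untranslated region) are known to carry iron-responsive elements. This strict pattern in a single transcript per gene therefore does not sort the members by iron control. Other isoforms of Slc11a2 entered only the count over all genes. A match is a description of the sequence and was not tested for binding.

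Ferritin was by far the most abundant of these messages. Per kilobase of the reference transcript, the mean normalized count over the 8 libraries was 225290 for Fth1, the heavy chain that oxidizes iron, and 65033 for Ftl1, the light chain that helps form the mineral core. Tfrc followed at 4548, Slc46a1 at 4018, Heph at 2612, Slc40a1 at 1885, Slc11a2 at 1563, Epas1 at 904, Cybrd1 at 209 and Hmox1 at 47.8 per kilobase. The lowest Fth1 library lay above the highest Ftl1 library, and the lowest Ftl1 library above the highest Tfrc library. The ranges of every pair of neighbours from Tfrc down to Epas1 overlapped across libraries. Within each of the 8 libraries Slc11a2 was above Epas1 per kilobase. The order of the neighbours from Tfrc down to Slc11a2 is not settled by these libraries. Epas1, Cybrd1 and Hmox1 were apart from each other in all 8 libraries. The highest library was between 2.16 times (Ftl1) and 6.91 times (Tfrc) the lowest.

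**Figure D1:**
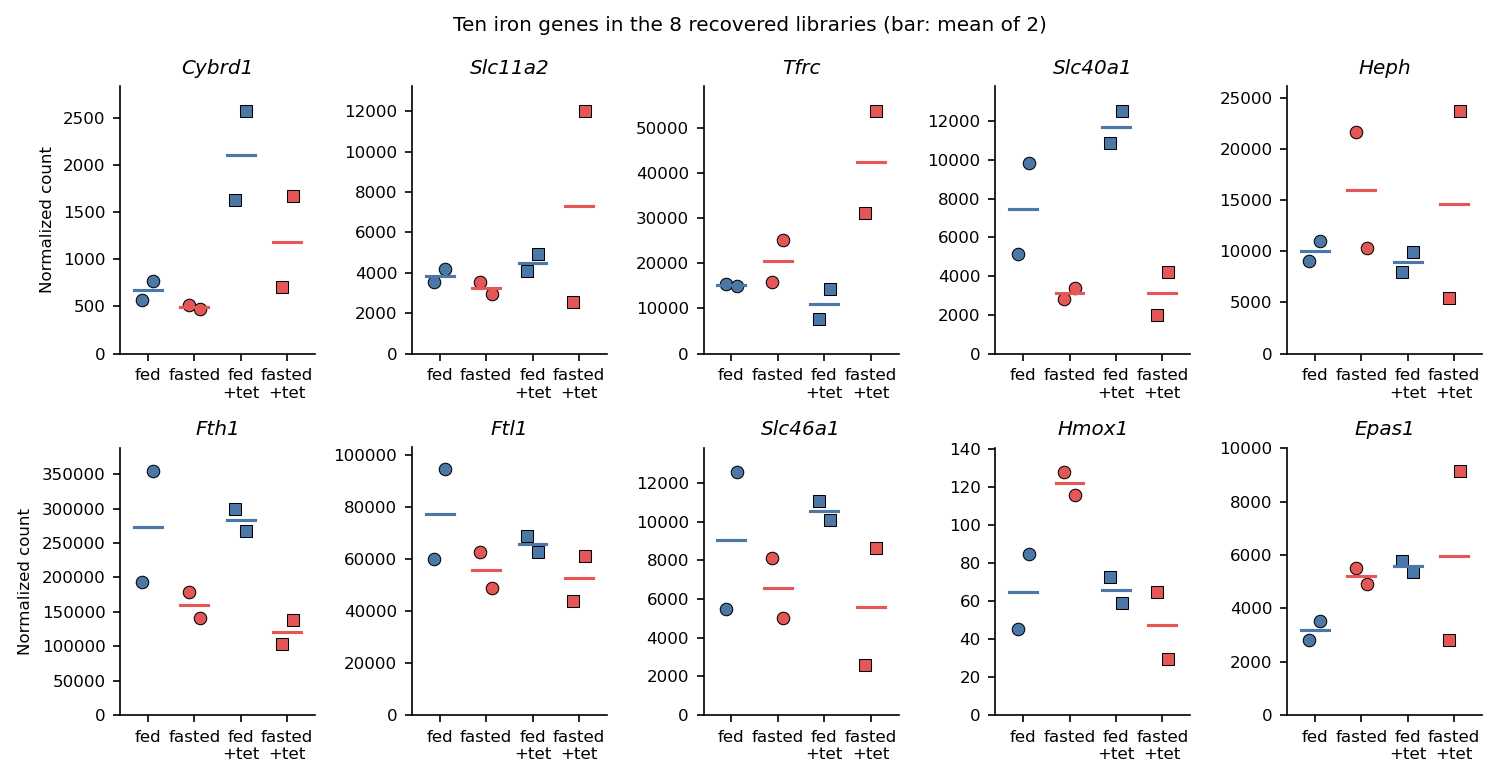
Normalized counts (linear axis from 0) of the 10 iron genes in the 8 recovered libraries; each point is 1 library, each bar the mean of the 2 libraries of a group, and "+tet" marks tetracycline. Slc40a1 and Fth1 are lower in both fasted libraries than in both fed libraries of each table, and Slc11a2, Heph and Epas1 are high in 1 fasted tetracycline library.

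Ferroportin, encoded by Slc40a1, is the only known iron exporter of the enterocyte, and it fell with fasting in both tables. Without tetracycline the normalized counts were 5120 and 9856 in the fed and 2841 and 3364 in the fasted libraries. With tetracycline they were 10871 and 12519 in the fed and 2006 and 4239 in the fasted libraries. The fasted libraries lay below the fed libraries each time, with no overlap. In the authors' deposited tables the log2 change was -1.28 ± 0.34 (standard error) without tetracycline, adjusted p = 0.0113 by DESeq2, and -1.91 ± 0.49 with tetracycline, adjusted p = 0.0201. These are falls of 2.43-fold and 3.75-fold. The difference of the changes, with minus without tetracycline, was -0.63 with a 95% interval from -1.79 to 0.54, so the fall was not shown to differ. Leaving out fed library 2 without tetracycline moved that change to -0.72, and leaving out fasted library 2 with tetracycline moved the other to -2.54.

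Transferrin receptor 1, encoded by Tfrc, brings transferrin-bound iron into the cell from the blood side and is high in dividing crypt cells. With tetracycline the normalized counts were 7758 and 14267 in the fed and 31045 and 53622 in the fasted libraries. Every fasted library was above every fed one, and Tfrc rose 3.84-fold in the authors' deposited table (log2 change 1.94 ± 0.50, adjusted p = 0.0249, DESeq2). Without tetracycline the counts were 15340 and 14852 in the fed and 15930 and 25103 in the fasted libraries. The log2 change there was 0.43 ± 0.29 with adjusted p = 0.678, and it was 0.08 without fasted library 2. The changes differed by 1.51 with a 95% interval from 0.37 to 2.65. That difference had an unadjusted p of 0.00947 in a two-sided Wald test and an adjusted p of 1.0 over 17571 genes, so the response was not shown to depend on tetracycline. An interaction term in limma gave an unadjusted p of 0.0321 and an adjusted p of 1.0. The adjusted Wald p was 0.102 after dividing the statistic by its robust SD over all genes. The summed counts of 12 cycling-cell markers, which include Mki67 and Top2a, were 69671 and 45653 in the fed and 35282 and 45869 in the fasted libraries without tetracycline. With tetracycline they were 45156 and 66952 in the fed and 48055 and 30009 in the fasted libraries, so the groups overlapped in both tables. All 12 had a change below 0 in each table, with 1 called lower without tetracycline and none with it, and the part of cycling cells in the Tfrc values was not tested.

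Of the 10 members, 1 was called without tetracycline (Slc40a1, lower), where 2.27% of all 18100 tested genes were called and 1.22% were called lower. With tetracycline 2 were called (Slc40a1 lower, Tfrc higher), against 0.600% of 17993 tested genes, 0.333% higher and 0.267% lower. None of the 10 passed the Wald test of the difference, where 0.0228% of all genes did, and 1 of 10 (Tfrc) had an unadjusted p below 0.05, against 1.05% of all genes. The median log2 change of the members was -0.36 without and -0.39 with tetracycline, beside -0.02 and -0.01 over all genes with a mean of at least 50. Changes below 0 were seen in 6 of the 10 in each table. On the recovered libraries, limma called none of the 10 in either comparison, where it called 0.00597% and 0.0179% of 16745 genes. Its adjusted p was 0.698 for Slc40a1 without and 0.331 with tetracycline, and 0.338 for Tfrc with tetracycline. Unadjusted p was under 0.05 for 1 member without tetracycline, against 6.85% of all genes, and for 2 with it, against 7.06%.

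**Figure D2:**
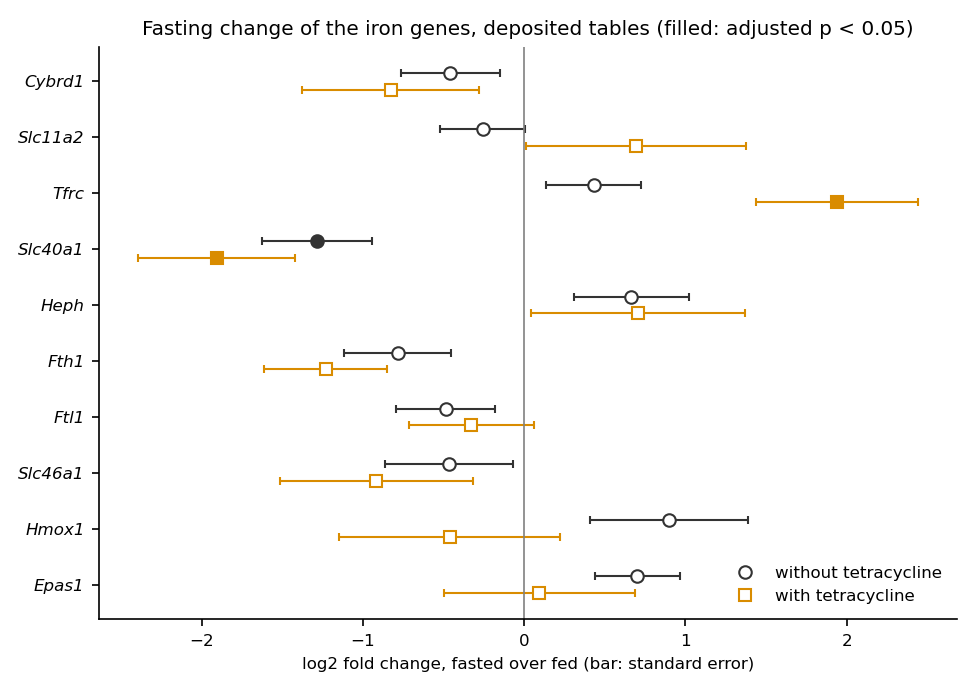
The authors' log2 fold change, fasted over fed, of each member without tetracycline (circles) and with it (squares); bars are the standard error and filled symbols have an adjusted p under 0.05. Slc40a1 lies at -1.28 and -1.91, and Tfrc at 0.43 and 1.94.

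Ferritin heavy chain was lower in fasted libraries in both tables, though it did not pass the test. Fth1 had 192936 and 354066 normalized counts in the fed and 178131 and 141585 in the fasted libraries without tetracycline. With tetracycline it had 299437 and 266962 in the fed and 102915 and 138326 in the fasted libraries. The groups did not overlap in either table, and the gap was wide with tetracycline and narrow without it. The log2 change in the authors' deposited tables was -0.78 ± 0.33 (adjusted p = 0.283, DESeq2) and -1.23 ± 0.38 (adjusted p = 0.130). Leaving out fed library 2 reduced the first to -0.27.

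The light chain had smaller values of change, a contrast that was not tested. Ftl1 had 60294 and 94691 in the fed and 62719 and 48765 in the fasted libraries without tetracycline, which overlap. With tetracycline it had 68948 and 62991 in the fed and 43751 and 61456 in the fasted libraries. Its log2 change was -0.49 ± 0.31 (adjusted p = 0.633, DESeq2) and -0.33 ± 0.39 (adjusted p = 1.0). Leaving out 1 library at a time gave -0.76 to -0.11 and -0.59 to -0.10. Processed ferritin pseudogenes can share reads with the genes. The listed copies came to at most 1.15% of the gene's own mean, for Ftl1-ps1.

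Set against each other within a library, the ferritin and receptor messages separated fed from fasted libraries. The Fth1 count was 12.6 and 23.8 times the Tfrc count in the fed libraries without tetracycline and 11.2 and 5.64 times in the fasted ones. With tetracycline it was 38.6 and 18.7 times in the fed and 3.32 and 2.58 times in the fasted libraries. All 4 fed libraries were above all 4 fasted libraries, narrowly so between 12.6 and 11.2. The count of Tfrc over that of Slc40a1 ran the other way, from 0.714 to 3.0 in fed and from 5.61 to 15.5 in fasted libraries. These ratios were formed after the single genes had been seen and carry no test.

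**Figure D3:**
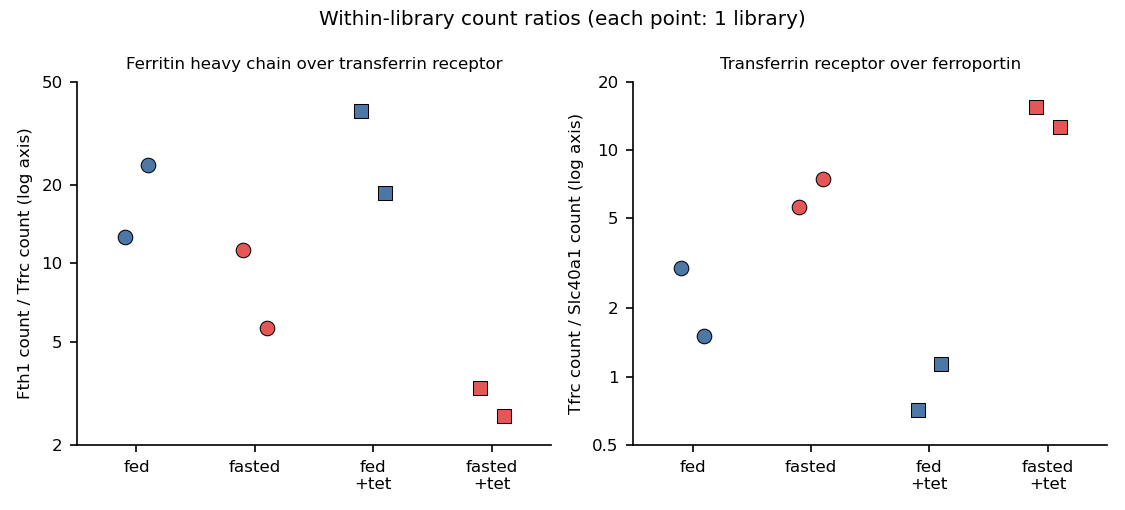
Ratio of normalized counts within each library (log axes): Fth1 over Tfrc on the left and Tfrc over Slc40a1 on the right, with each point 1 library. Fth1 over Tfrc is 12.6 to 38.6 in fed and 2.58 to 11.2 in fasted libraries.

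The apical importers showed no call. Slc11a2 encodes DMT1, the ferrous iron transporter of the brush border. Its counts were 3538 and 4178 in the fed and 3535 and 2970 in the fasted libraries without tetracycline, which are apart by only 3 counts at the nearest. With tetracycline they were 4089 and 4908 in the fed and 2568 and 12034 in the fasted libraries, so 1 fasted library was below and the other above both fed ones. The log2 change was -0.26 ± 0.26 (adjusted p = 0.849, DESeq2) and 0.69 ± 0.68 (adjusted p = 1.0), and the second became -0.81 without fasted library 2.

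Cybrd1 encodes duodenal cytochrome b, a reductase that supplies ferrous iron to DMT1. Its counts without tetracycline were 571 and 774 in the fed and 515 and 472 in the fasted libraries. With tetracycline they were 1632 and 2571 in the fed and 706 and 1667 in the fasted libraries. The log2 change was -0.46 ± 0.31 (adjusted p = 0.669, DESeq2) and -0.83 ± 0.55 (adjusted p = 1.0). The first became -0.21 without fed library 2 and the second -1.57 without fasted library 2.

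Hephaestin, the membrane ferroxidase that works with ferroportin, varied widely between libraries of a group. Heph had 9069 and 11005 in the fed and 21621 and 10360 in the fasted libraries without tetracycline, and 7955 and 9893 in the fed against 5446 and 23769 in the fasted libraries with it. In both tables a single fasted library was far above its partner. The log2 change was 0.66 ± 0.36 (adjusted p = 0.505, DESeq2) and 0.71 ± 0.67 (adjusted p = 1.0). Leaving out the high fasted library gave 0.05 without and -0.71 with tetracycline.

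The haem genes were not called. Slc46a1 encodes the proton-coupled folate transporter, first described as a haem carrier. It had 5508 and 12555 in the fed and 8121 and 5041 in the fasted libraries without tetracycline. With tetracycline it had 11070 and 10062 in the fed and 2579 and 8642 in the fasted libraries. Its log2 change was -0.47 ± 0.40 (adjusted p = 0.789, DESeq2) and -0.92 ± 0.60 (adjusted p = 1.0), and the first became 0.26 without fed library 2 and the second -2.03 without fasted library 2.

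Hmox1, the inducible haem oxygenase that frees iron from haem, was the least abundant member. Its normalized counts were 45 and 85 in the fed and 128 and 116 in the fasted libraries without tetracycline. They were 73 and 59 in the fed and 65 and 30 in the fasted libraries with it. The log2 change was 0.90 ± 0.49 (adjusted p = 0.515, DESeq2) and -0.46 ± 0.69 (adjusted p = 1.0). Leaving out 1 library at a time gave 0.53 to 1.43 and -1.15 to -0.02. The sign differed between the tables, and the difference of -1.36 had a 95% interval from -3.01 to 0.29.

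Epas1 had 2824 and 3531 in the fed and 5501 and 4918 in the fasted libraries without tetracycline. The groups did not overlap, with a log2 change of 0.70 ± 0.26 and an adjusted p of 0.176 (DESeq2). With tetracycline it had 5784 and 5374 in the fed and 2796 and 9147 in the fasted libraries, a change of 0.10 ± 0.59 (adjusted p = 1.0). The 2 fasted tetracycline libraries lay on opposite sides of the fed ones, and the change was -0.997 without fasted library 2.

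Libraries without overlap between fed and fasted were common in the whole tables. Of 13185 genes with a mean of at least 50 over the 8 libraries, 44.7% did not overlap without tetracycline and 30.7% with it. The members gave 7 of 10 and 5 of 10. Being lower in fasted without overlap in both tables applied to Slc40a1 and Fth1, and to 7.43% of all these genes.

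Fasted library 2 with tetracycline stood apart from its partner for the absorptive genes. It had 12034 counts of Slc11a2 against 2568, 23769 of Heph against 5446, 8642 of Slc46a1 against 2579 and 9147 of Epas1 against 2796. The summed counts of 9 mature enterocyte markers were 1618213 in this library and 461463 in its partner. The 12 proximal small intestine markers summed to 1260085 and 306182, and the 8 distal ones to 43715 and 14020. The partner, fasted library 1 with tetracycline, was the lowest of all 8 libraries for each of these genes and sums. It was also the lowest for Slc40a1 (2006), Fth1 (102915) and Ftl1 (43751). With fasting the proximal list had 1 gene called higher and 1 lower without tetracycline and none called with it. Of the distal list 1 was called lower, Fabp6, the ileal bile acid binding protein, at -5.13 ± 0.34 (adjusted p = 1.46e-48, DESeq2) without tetracycline, and at -2.21 ± 0.75 (adjusted p = 0.268) with it. The latter was -4.04 without fasted library 2 and -1.42 without fasted library 1. The part of the sampled length of intestine in these values was not tested. Without tetracycline, fasted library 1 was likewise highest for enterocyte markers (1466089 against 774347 in its partner) and for Heph. The enterocyte sums of the fed libraries were 614425 to 918033. Of the 12 tested enterocyte markers 2 were called higher without tetracycline and none with it. In either of these fasted tetracycline libraries, Slc40a1 was below and Tfrc above both fed libraries. The part of crypt and villus cell shares in any of these values, Slc40a1 and Tfrc included, was not tested, and in bulk RNA fewer cells of a type and less RNA per cell cannot be told apart.

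**Figure D4:**
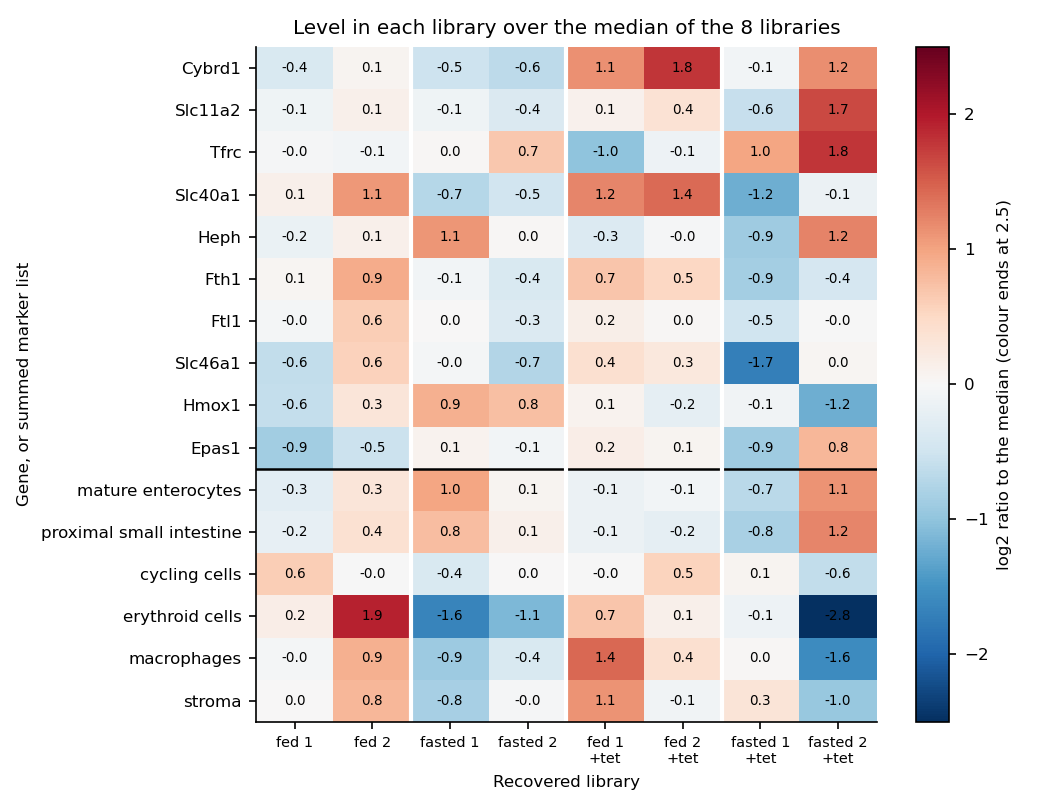
The log2 ratio of each library to the median of the 8 libraries for the 10 members (above the black line) and for the summed counts of 6 marker lists (below it); colours end at 2.5 and the value is printed in each cell. Fasted library 2 with tetracycline is high for enterocyte markers, Tfrc, Slc11a2, Heph, Cybrd1 and Epas1. Erythroid markers are below the median in all 4 fasted libraries, by only 0.14 in fasted library 1 with tetracycline.

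Markers of blood, macrophages and stroma were also lower in most fasted libraries. The 8 erythroid markers recovered, of a list of 10, summed to 86523 and 292642 when fed and to 24478 and 35077 when fasted without tetracycline, with 4 of 7 tested genes called lower. Hba-a2, an α-globin, had a log2 change of -2.62 ± 0.45 (adjusted p = 1.53e-06, DESeq2), and -1.53 without fed library 2. With tetracycline the erythroid sums were 123259 and 83496 when fed and 69720 and 11244 when fasted, with none called. The 12 macrophage markers summed to 2214 and 4201 when fed and to 1206 and 1737 when fasted without tetracycline, and to 6193 and 2985 against 2337 and 767 with it. Of the macrophage list 1 gene of 11 tested (Lyz2) and of the stromal list 3 of 12 were called lower without tetracycline, and none with it. Vsig4 was the only macrophage marker at 0 in any library, and it was at 0 in all 4 fasted libraries. The 12 stromal markers summed to 1873 to 3303 in fed and 1036 to 1823 in fasted libraries without tetracycline, and to 1735 to 4016 and 952 to 2319 with it. Erythroid cells and macrophages are known to express ferroportin and ferritin as well, and the fed library with the highest erythroid sum, fed library 2 without tetracycline, also had the highest Fth1 and Ftl1 counts of all 8. Its Slc40a1 count of 9856 was below those of both fed tetracycline libraries (10871 and 12519), and the lowest Slc40a1 count (2006) was in fasted library 1 with tetracycline, with an erythroid sum of 69720. Their part in the fall of Slc40a1 was not tested. Without fed library 2 the Slc40a1 change is the -0.72 given above. Erythroid precursors also express Tfrc, and their part in its values was not tested.

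Tetracycline was compared at equal feeding across the tables, as log2 ratios of group means rebuilt from the deposited values and centred on the median of all genes, with no test. In fed crypts Cybrd1 was the only member at least 1 apart, at 1.64, or 3.11-fold higher with tetracycline, where 3.78% of 13194 genes were at least 1 apart. Leaving out 1 library at a time gave Cybrd1 1.28 to 1.93, and without fed library 2 of the untreated mice Slc40a1 was at least 1 apart as well. The fed libraries of Cybrd1 did not overlap (1632 and 2571 with tetracycline against 571 and 774 without). Other fed ratios ran from -0.46 for Tfrc to 0.81 for Epas1. In fasted crypts 4 of 10 were at least 1 apart, where 1.51% of genes were. These were Cybrd1 at 1.26, Slc11a2 at 1.16, Tfrc at 1.04 and Hmox1 at -1.34. The fasted values rest on fasted library 2 with tetracycline: without it none of these 4 was at least 1 apart (Cybrd1 0.52, Slc11a2 -0.34, Tfrc 0.60, Hmox1 -0.90, from the recovered counts). Heph at -1.55 and Slc46a1 at -1.35 then were. Leaving out fasted library 1 with tetracycline instead gave 0.57 for Heph and 0.39 for Slc46a1. Tfrc was also below 1, at 0.75, when fasted library 1 without tetracycline was left out. Cybrd1, Tfrc and Hmox1 did not overlap between the fasted libraries without and with tetracycline, and Slc11a2 did. Counting every member whatever its ratio, 4 of 10 did not overlap in fed and 4 of 10 in fasted crypts, beside 37.4% and 15.7% of all genes. The comparison crosses tables that the authors scaled separately, and limma called none of the 10 in either (all adjusted p = 1.0), with an unadjusted p under 0.05 for 1 member in fed and 3 in fasted crypts. Over all genes limma called 0.00597% in fed and 0 in fasted crypts, and 1.91% and 1.10% had an unadjusted p under 0.05.

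Calls in the wider pathway fell in the haem synthesis, oxygen-sensing and BACH1 and NRF2 lists. Another 9 lists hold 117 genes of iron and haem handling and of the transcription pathways around them, of which 114 were in both tables. Without tetracycline 5 of 109 tested were called, and with tetracycline 1 of 108, beside the 2.27% and 0.600% of all genes given above. No gene was called among the other iron importers and transferrin pathway (10 tested in each table), the other export and hepcidin genes (8), storage and chaperone genes (6), the iron regulatory proteins and their control (8), or mitochondrial iron and iron-sulfur cluster assembly (19). The other haem transport and breakdown genes had none called either (12 tested without and 11 with tetracycline). The iron-sulfur list had a median log2 change of -0.16 without and 0.16 with tetracycline.

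Among the 12 haem synthesis genes, 1 was called lower without tetracycline. This was Alas2, the erythroid form of the first enzyme of the pathway. The fed libraries held 2082 and 5467 counts and the fasted ones 498 and 755, with a log2 change of -2.60 ± 0.42 (adjusted p = 2.83e-07, DESeq2). Without fed library 2 it was -1.73. With tetracycline the change was -1.23 ± 0.71 (adjusted p = 1.0), and -0.50 without fasted library 2. The α-globin Hba-a2 was likewise called lower without tetracycline only, though a difference between the tables was not called for either gene (adjusted p = 1.0, Wald test).

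In the oxygen-sensing list, 2 of 19 rose and 1 fell without tetracycline, and 1 rose with it. Hif3a, a member of the same factor family as Epas1 that can dampen its activity, rose in both tables. It had 32.3 and 36.7 counts when fed and 137 and 209 when fasted without tetracycline, and 27.1 and 28.4 against 282 and 487 with it. The log2 change was 2.31 ± 0.47 (adjusted p = 1.83e-04, DESeq2) and 3.79 ± 0.53 (adjusted p = 2.25e-09). Ankrd37, a hypoxia-induced gene, fell by 2.76 ± 0.45 on the log2 scale without tetracycline (adjusted p = 5.28e-07) and had -0.35 ± 0.76 with it (adjusted p = 1.0). With tetracycline its counts were 235 and 213 when fed and 55.3 and 299 when fasted, and the change was -2.02 without fasted library 2. Ndrg1, a stress-responsive gene that hypoxia and iron chelation induce, rose by 0.98 ± 0.26 without tetracycline (adjusted p = 0.0133) and had 1.79 ± 0.62 with it (adjusted p = 0.299). With tetracycline its counts were 11429 and 12192 when fed and 17518 and 64459 when fasted, and the change was 0.57 without fasted library 2. The called genes of this list went both ways.

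Among the 15 genes of the BACH1 and NRF2 list, which respond to haem and oxidants, Nqo1 was the only one called. This quinone reductase had 3283 and 4379 counts when fed and 1632 and 1775 when fasted without tetracycline, a log2 change of -1.18 ± 0.27 (adjusted p = 0.00188, DESeq2). With tetracycline it was -0.58 ± 0.36 (adjusted p = 1.0). Hmox1, a target of the same factors, had both fasted libraries above both fed ones without tetracycline, where Nqo1 had both below. With tetracycline Nqo1 again had both fasted libraries (2174 and 2236) below both fed ones (3108 and 3499). The Hmox1 groups overlapped there, with a log2 change of -0.46 ± 0.69.

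Among genes with the largest changes in the lists without a call, Flvcr2 had 1 high fasted library with tetracycline and Cubn had 1 in each table. Flvcr2, a transporter of the haem exporter family, had a log2 change of 2.47 ± 0.87 with tetracycline (adjusted p = 0.335, DESeq2), from 1962 counts in fasted library 2 against 203 in its partner, and 0.06 without that library. Cubn, a receptor that takes up transferrin in the kidney and the vitamin B12 complex in the ileum, had 19484 in fasted library 1 without tetracycline and 3695 in its partner. Slc39a8, which encodes the metal importer ZIP8, had 486 and 965 counts when fed and 1343 and 3647 when fasted with tetracycline, a log2 change of 1.78 ± 0.61 (adjusted p = 0.283) that was 0.89 without fasted library 2. Lrp1, a receptor for haem bound to hemopexin, had 1.05 ± 0.35 without tetracycline (adjusted p = 0.0860), and 0.45 without fasted library 1. Slc25a28, which encodes the mitochondrial iron importer mitoferrin 2, had 0.44 ± 0.25 and 0.54 ± 0.37 (adjusted p = 0.559 and 1.0), with both fasted libraries above both fed ones in each table. Tmprss6, a protease that restrains hepcidin expression in the liver, had -1.05 ± 0.57 and -1.46 ± 0.57 (adjusted p = 0.517 and 0.535), with both fasted libraries below both fed ones in each table. Leaving out 1 library at a time gave Tmprss6 -2.11 to -0.41 without and -1.84 to -0.95 with tetracycline.

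**Figure D5:**
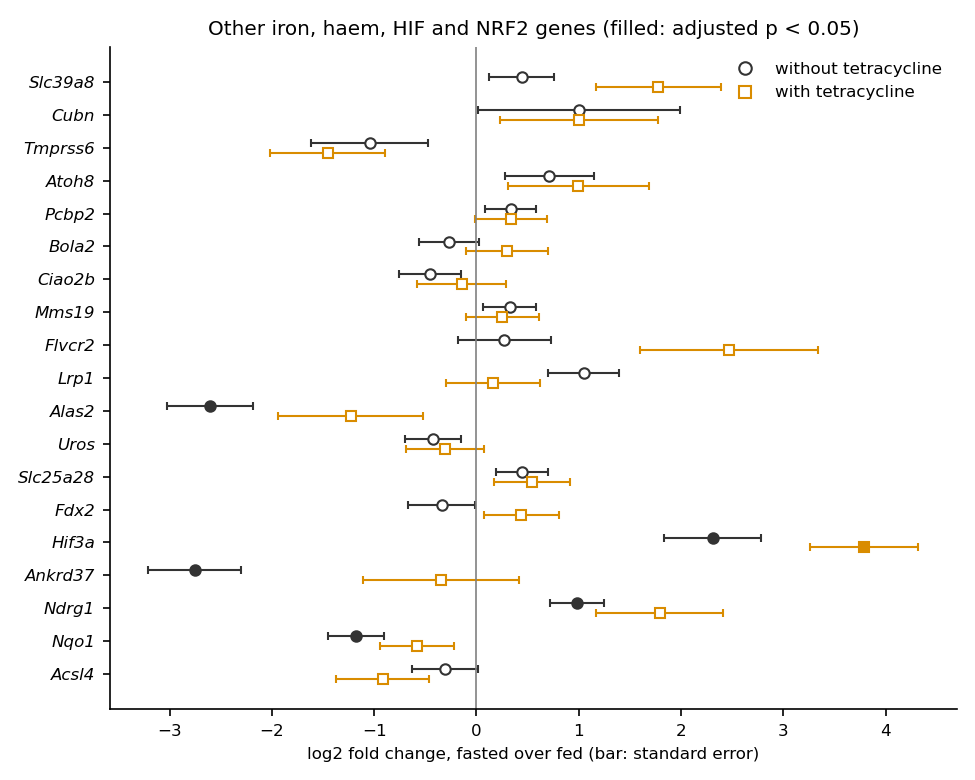
The authors' log2 fold change, fasted over fed, of the named genes of the other iron, haem, oxygen-sensing and NRF2 lists, without tetracycline (circles) and with it (squares); bars are the standard error and filled symbols have an adjusted p under 0.05. Hif3a is filled in both tables, and Alas2, Ankrd37, Ndrg1 and Nqo1 only without tetracycline.

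The labelled epithelium was checked by its markers. The 10 epithelial markers recovered summed to between 429687 and 711056 counts per library, and none was at 0. The 10 endothelial markers recovered summed to between 283 and 936. Macrophage and stromal sums reached 6193 and 4016, both in fed library 1 with tetracycline. Erythroid sums ran from 11244 to 292642, so the check does not show the crypts to be free of other cells.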

How the data were processed

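The members and gene lists were chosen with earlier results of these data known. The submitters' processing notes name Salmon, DESeq2 and the mm10 build, with no versions; other steps are not given in the sources used here. The authors deposited 2 tables. Per the file headers, the authors' mean is a signal (the average of size-factor-scaled counts), their fold change with its standard error is given in log2 units, and their test statistic is a score with p-values and adjusted p-values. A gene is called where the adjusted p is under 0.05, and no count test was rerun. The tables hold 0 further per-sample columns.

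The library counts were recovered, since each deposited mean is a sum of whole counts times 1 step per library. Where several sets gave the mean, the set whose refitted negative binomial model gave the deposited fold change within 1e-09 was kept, which left 1 set for 25265 of 25272 rows tried without and 25829 of 25833 with tetracycline. Rows with a mean above 30000 were tried only where listed, and very abundant markers (Apoa1, Apoa4, Krt8, Lyz1) were not recovered. All 8 libraries were put on 1 median-of-ratios scale. Counts come from a kit that keeps no strand, per the labels' protocols, so overlapping genes are uncertain. Library 1 of a group is only a name, and no library could be tied to a labelled sample.

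Whether the fasting changes differ was tested with a two-sided Wald test on the deposited changes and standard errors, adjusted by Benjamini-Hochberg over genes with an adjusted p in both tables. limma 3.58.1 on log2(normalized count + 1), for genes with a mean of at least 10, was added after seeing the data. Scripts were tested on simulated data. Named genes are all 10 members, every other listed pathway gene called in either table, and the genes with the largest mean absolute change in each list, of which the text gives a part. Transcript lengths and hairpins are from GENCODE mouse release 21, matched without identifier versions.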

Additional observations from a re-analysis of the deposited data

How the results depend on the processing

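Of 41 alternatives for the counts of members called or apart, 35 stayed within 1.5 times. With a threshold of 0.01 for the adjusted p, or with limma on the recovered libraries, 0 members were called without and 0 with tetracycline. Thresholds of 0.1, adjustment over other gene sets, other minimum means and centring left both counts unchanged, and no alternative called a member in the difference. Of 344 alternatives for single members, 309 kept their direction and side of the threshold or moved by less than the spread between libraries. In limma the change of Epas1 with tetracycline was -0.14 and the difference of the Heph changes -0.22, each with the sign turned. Neither was called. The limma fit averages the log2 counts of a group. The arithmetic means of Epas1 with tetracycline, 5971 fasted and 5579 fed, lie in the direction of the deposited change. The cause was not tested further. Leaving out 1 library at a time kept the sign of 16 of 20 fasting changes, with ranges of -1.67 to -0.72 and -2.54 to -1.46 for Slc40a1 without and with tetracycline and 1.5 to 2.45 for Tfrc with it. The sign turned for Slc46a1 without tetracycline and for Slc11a2, Heph and Epas1 with it. Leaving out 1 library at a time, added after seeing the data, gave 1 to 2 members at least 1 apart across tetracycline in fed crypts and 2 to 4 in fasted crypts. No paired analysis was possible because the labels list 1 sample per group and the libraries carry no shared numbers. Hmox1, at a mean of 75.1 normalized counts, has the fewest counts of the members; counting error was not compared with the spread between libraries.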
